A study of Rattus norvegicus with 16 samples.

Results

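The phase II conjugation enzymes of NG108 cells were followed through the probe sets whose platform annotation gives a single gene symbol starting with Gst, Ugt, Sult or Ephx. This rule found 45 probe sets for 25 genes among the 972 gene probe sets and 549 singly named genes of the array. Transcript levels were measured on 16 Affymetrix rat arrays, with 10 µg of total RNA on each. In the control group, 8 samples of NG108 cells were exposed to 0.25% dimethyl sulfoxide (DMSO), and in the treated group 8 samples were exposed to the antimalarial drug mefloquine at 4400 ng/ml, each for 2 hours. Both groups are numbered from 1 to 8 in the titles, and no label says whether each sample was a culture of its own. The p-values then measure only how far these samples spread, which can be technical. The labels used here do not give whether DMSO was also present with the drug. The labels call NG108 a rat neuronal culture, and the line is known to come from the fusion of a mouse neuroblastoma with a rat glioma. How well probes for rat sequences read mouse transcripts was not tested.

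Phase II enzymes attach a polar group to drugs, steroids and reactive metabolites, so that these can be excreted. Glutathione S-transferases (Gst) add glutathione to electrophiles, UDP-glucuronosyltransferases (Ugt) add glucuronic acid, and sulfotransferases (Sult) add sulfate. Epoxide hydrolases (Ephx) add water to epoxides, and are counted with these families because they clear the products of cytochrome P450 oxidation. The enzymes are abundant in liver, while in the brain mu and pi class glutathione transferases are known mainly from glial cells. The comparison asks whether the transcripts of these enzymes differed after a short exposure to the drug.

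The deposited intensities are linear, and values at or below 0 occur. A probe set was counted as above the floor on an array where its intensity exceeded 427, the 25th percentile of all positive values, and it was tested where this held on at least 8 of the 16 arrays. The median gene probe set of an array had an intensity between 461 and 665. DMSO 3 stood apart, with a beta-actin 3' over 5' ratio of 21.3 (other arrays 1.31 to 2.67) and a GAPDH ratio of 4.62 (others 1.02 to 1.48). The median correlation of an array with the other arrays was 0.855 for DMSO 3, 0.901 for mefloquine 1, 0.913 for mefloquine 2 and 0.925 to 0.945 for the rest. None of the 13 neuronal marker genes listed had a singly named probe set, and of 9 glial markers 2 had one, Vim and Clu, both above the floor on all 16 arrays. Of 11 hepatocyte markers 4 had one. Cyp2e1 was above the floor on 15 arrays, Tat on 12, Cyp3a2 on 4 and Cyp2c11 on 0 by each of its 3 probe sets. What any cell type contributed to the results was not tested, and in bulk RNA fewer cells of a type and less RNA per cell cannot be told apart.

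Of the 45 conjugation enzyme probe sets, 12 (26.7%) lay above the floor on 8 or more arrays, where 56.1% of all gene probe sets did. They belonged to 8 of the 25 genes. Of the Gst probe sets 8 of 16 were above the floor, of the Ugt probe sets 2 of 9, of the Sult probe sets 1 of 15 and of the Ephx probe sets 1 of 5. Another 16 member probe sets were above the floor on no array. The genes with a measured level were the mu class transferases Gstm1, Gstm2 and Gstm7, the pi class transferase Gstp1, the glucuronosyltransferases Ugt2b and Ugt2b1, the phenol sulfotransferase Sult1a1 and the microsomal epoxide hydrolase Ephx1.

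**Figure D1:**
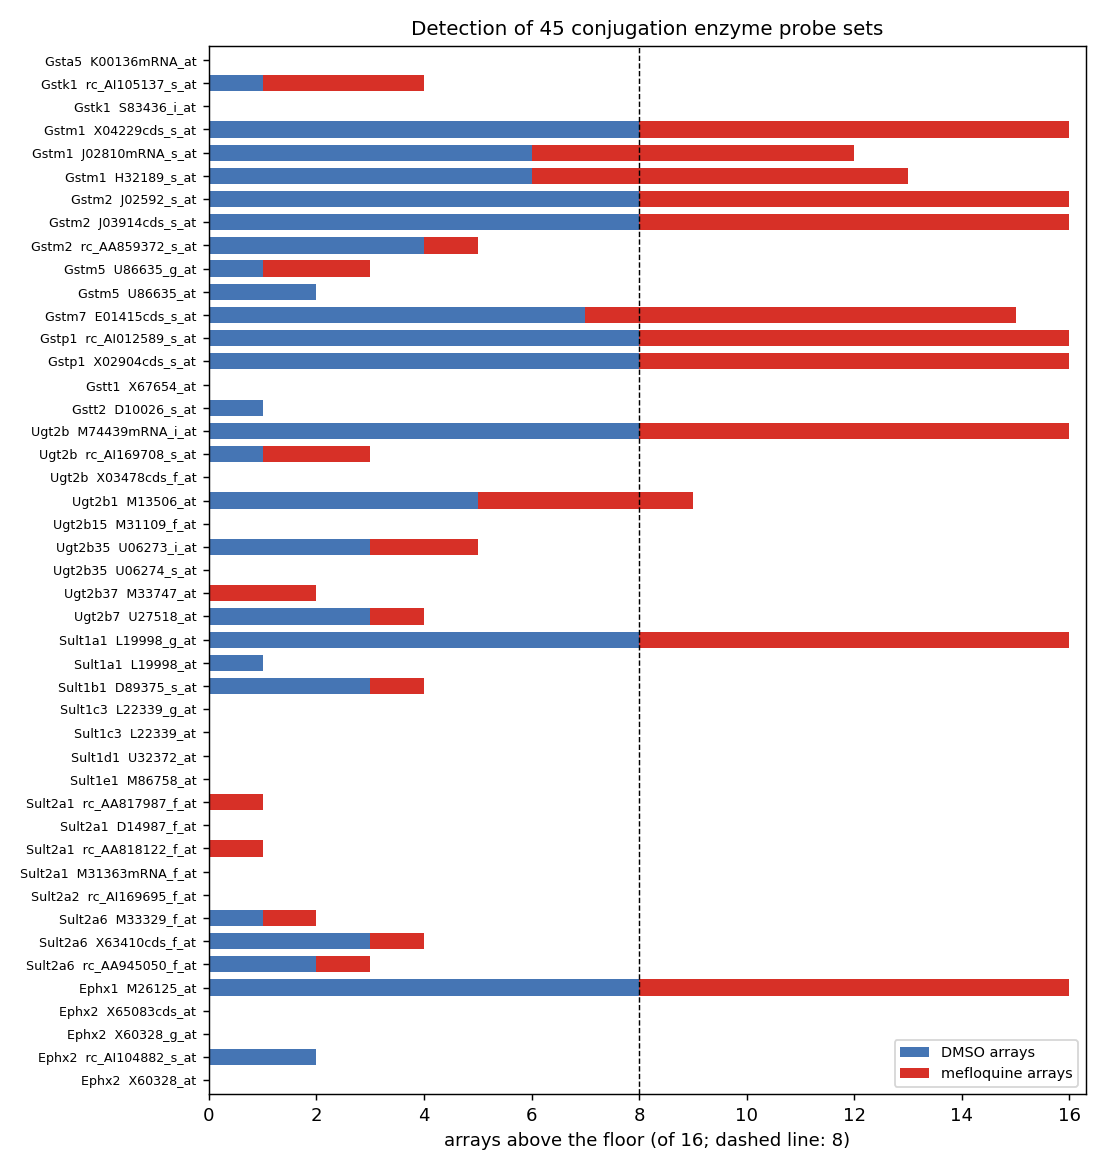
Number of arrays on which each of the 45 probe sets was above the floor, with DMSO arrays in blue and mefloquine arrays in red, and the dashed line at 8 arrays. Bars passing the line are the 12 tested probe sets, and 16 probe sets have no bar.

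The remaining genes had no tested probe set. Among the glutathione transferases, the alpha class gene Gsta5 was at or below 0 on all 16 arrays (-575 to -31.5), as was the theta class gene Gstt1 (-2398 to -71.9). Gstt2 was above the floor on 1 array. The kappa class gene Gstk1 was above it on 4 and 0 arrays by its probe sets, and the mu class gene Gstm5 on 3 and 2. Among the sulfotransferases, Sult1c3, Sult1d1, Sult1e1 and Sult2a2 were above the floor on 0 arrays, each of the 4 Sult2a1 probe sets on at most 1, and Sult1b1 on 4. The hydroxysteroid sulfotransferase gene Sult2a6 was above it on 4, 3 and 2 arrays by its probe sets. Ugt2b15 was at or below 0 on all 16 arrays, and the soluble epoxide hydrolase Ephx2 was above the floor on 2 arrays by 1 of its 4 probe sets and on 0 by the others. Ugt2b35, Ugt2b37 and Ugt2b7 were above it on at most 5, 2 and 4 arrays.

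Probe sets of 1 gene could differ in level. Sult1a1 was above the floor on all 16 arrays by L19998_g_at (988 to 2483) but on 1 array by L19998_at (-889 to 431). Ugt2b was above it on all 16 arrays by M74439mRNA_i_at (1197 to 2921), on 3 by rc_AI169708_s_at and on 0 by X03478cds_f_at (-324 to 67.4). In the naming of these arrays, the endings _s_at and _f_at mark probes that related genes can share, and _i_at marks a set with fewer usable probes. The mu class genes, on rat chromosome 2 in RefSeq's table, and the Ugt2b genes, on chromosome 14, are families of close copies, so a signal may come partly from a relative of the named gene. A further 12 probe sets carried several symbols with at least 1 of these families and were not members. Of those, 5 were above the floor on 8 or more arrays and 0 passed the test described next.

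No conjugation enzyme transcript passed limma's test between mefloquine and DMSO arrays. Of the 12 tested member probe sets 0 passed at a Benjamini-Hochberg adjusted p under 0.05, in either direction, and 0 had an unadjusted p under 0.05. Over all 545 tested probe sets 7 passed (1.28%), of which 6 were higher (1.10%) and 1 was lower (0.183%), and 23 had an unadjusted p under 0.05 (4.22%). A share of 1.28% of 12 is less than 1 probe set, so a count of 0 does not set the members apart from the array as a whole. The array-wide count fell to 4 without DMSO 2, 6, 7 or 8 or mefloquine 3 or 4, while the member count was 0 in all 31 alternative fits. The member differences had a median of -0.01 on the log2 scale, from -0.18 to 0.31, with 5 above 0 and 7 below, and the median over all tested probe sets was -0.01. For 11 of the 12 the limma 95% interval lay wholly within a 2-fold change up or down (87.7% over all tested probe sets). The groups overlapped for all 12, where 0.550% of all tested probe sets did not overlap.

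Gstm1 encodes a mu class transferase that conjugates a broad range of electrophiles. By its brightest probe set, X04229cds_s_at, the lowest, median and highest intensities were 1310, 3691 and 5217 in DMSO arrays and 1188, 4867 and 10444 in mefloquine arrays. The groups overlapped, with 3 of 8 mefloquine arrays above the highest DMSO array. The log2 difference was 0.31 ± 0.47 (SE, n = 8 each), with a 95% interval from -0.68 to 1.30, a limma adjusted p of 0.982 and an exact permutation p of 0.513 (two-sided). This was the 1 member whose interval reached past a 2-fold change. With 1 array left out it ranged from 0.08 without mefloquine 2, which gave the value of 10444, to 0.53 without mefloquine 8, and it did not pass in any of these fits. Without the 3 arrays DMSO 3 and mefloquine 1 and 2 it was 0.06. The dimmer Gstm1 probe sets differed by -0.00 ± 0.44 (J02810mRNA_s_at, above the floor on 12 arrays) and 0.10 ± 0.16 (H32189_s_at, above it on 13).

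Gstm2, another mu class transferase, was among the members with the narrowest intervals. By J02592_s_at its lowest, median and highest intensities were 5154, 7732 and 8696 in DMSO arrays and 5025, 7075 and 9254 in mefloquine arrays. The groups covered nearly the same range, and the log2 difference was -0.03 ± 0.15 (SE, n = 8 each; 95% interval -0.34 to 0.28; limma adjusted p = 0.998). By J03914cds_s_at the levels ran from 500 to 1630 in DMSO arrays and from 615 to 1272 in mefloquine arrays, with a log2 difference of -0.18 ± 0.23. A Gstm2 probe set that was not tested, rc_AA859372_s_at, had an intensity of 14074 on DMSO 3 and between -825 and 1716 on the other 15 arrays. The next highest were 1716 on mefloquine 8 and 1143 on DMSO 8, and these 3 arrays also had the highest beta-actin 3' over 5' ratios (21.3, 2.58 and 2.67). The part of RNA quality in this probe set was not tested.

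Gstm7, also of the mu class, had intensities of 116, 2333 and 4049 (lowest, median and highest) in DMSO arrays and 879, 2255 and 2803 in mefloquine arrays. DMSO 3 gave the value of 116, below the floor, and the other 7 DMSO arrays were at 2055 or above. The log2 difference was -0.01 ± 0.37 (SE, n = 8 each; 95% interval -0.78 to 0.76; limma adjusted p = 0.998). Without DMSO 3 it was -0.34, and without that array and mefloquine 1 and 2 it was -0.40, neither of which passed. The value of 879 came from mefloquine 3. With 1 array left out at a time the Gstm7 difference ranged from -0.34 to 0.17.

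Gstp1, the pi class transferase that also binds and restrains the kinase JNK, was measured by a pair of probe sets, both above the floor on all 16 arrays. By rc_AI012589_s_at the lowest, median and highest intensities were 2235, 4224 and 5479 in DMSO arrays and 2242, 4345 and 5180.7 in mefloquine arrays. The log2 difference was -0.01 ± 0.21 (SE, n = 8 each; 95% interval -0.45 to 0.43; limma adjusted p = 0.998; exact permutation p = 0.952). The groups overlapped, and the replicate ranges gave opposite signs: -0.31 within replicates 1 to 5 and 0.47 within replicates 6 to 8. For the interaction of treatment with these ranges in limma, the unadjusted p was 0.0714 and the adjusted p 0.990. By X02904cds_s_at the levels ran from 740 to 3342 in DMSO arrays and from 1698 to 3233 in mefloquine arrays, with a log2 difference of 0.17 ± 0.25. DMSO 3 gave the value of 740, and without it the difference was -0.06.

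**Figure D2:**
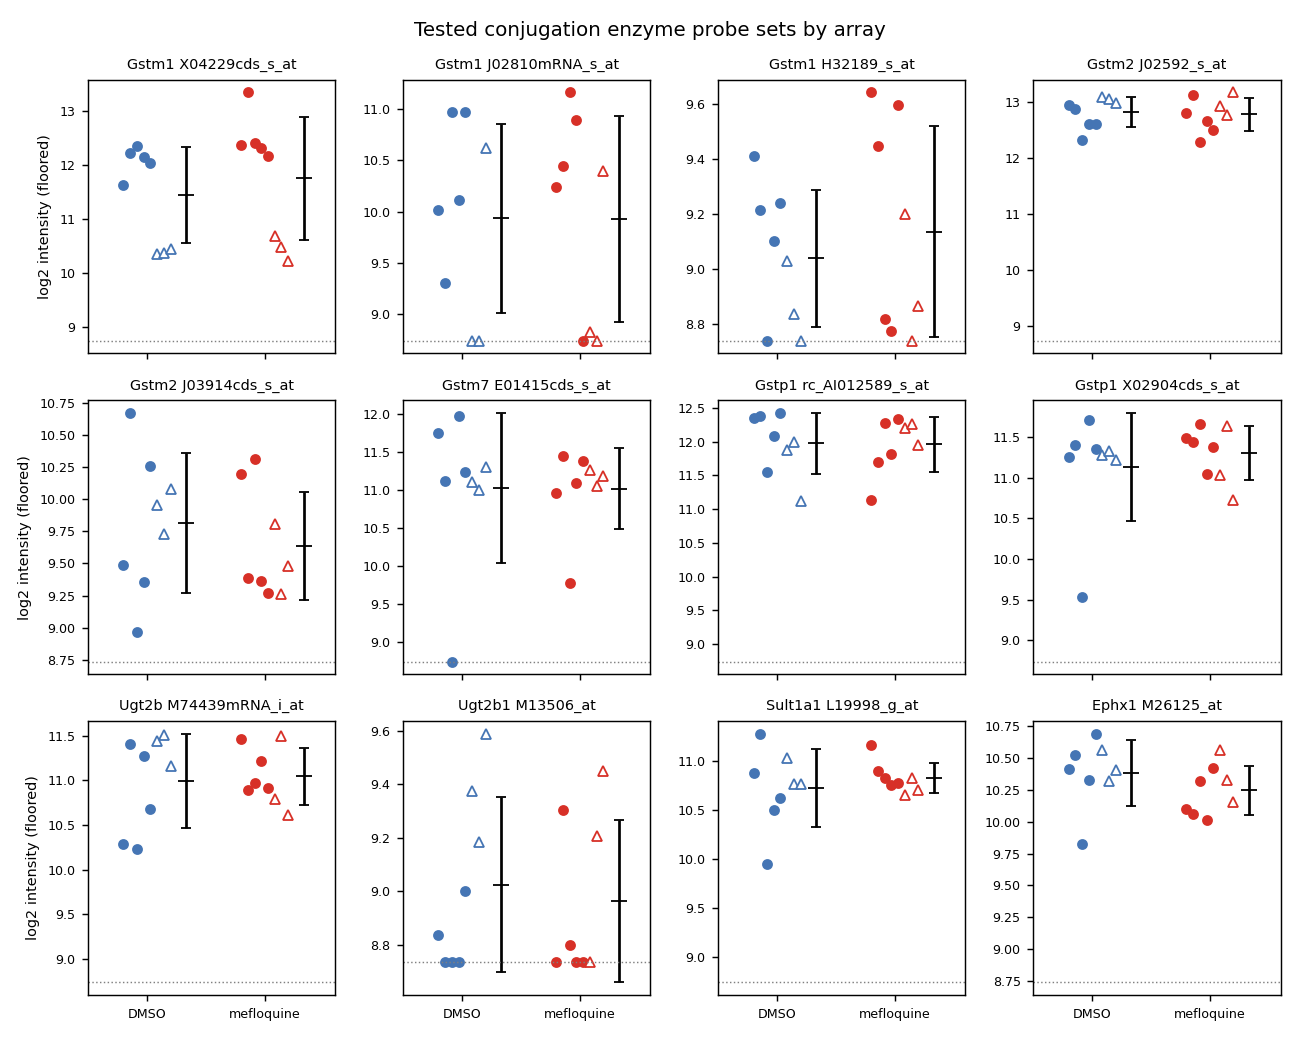
Floored log2 intensity of each tested member on every array, with replicates 1 to 5 as filled circles, replicates 6 to 8 as open triangles, group mean and SD as black bars, and the floor as a dotted line. Mefloquine and DMSO arrays overlap in each panel, while the Gstm1 probe set X04229cds_s_at splits by replicate number in both groups.

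The glucuronosyltransferase gene Ugt2b had intensities of 1197, 2377 and 2921 (lowest, median and highest) in DMSO arrays and 1562, 1966 and 2880 in mefloquine arrays by M74439mRNA_i_at. The log2 difference was 0.05 ± 0.21 (SE, n = 8 each; 95% interval -0.40 to 0.49; limma adjusted p = 0.998). As for Gstp1, the ranges gave opposite signs, 0.32 within replicates 1 to 5 and -0.41 within replicates 6 to 8, and the interaction had an unadjusted p of 0.0876 and a limma adjusted p of 0.990. Ugt2b1 was close to the floor, with 152, 485 and 771 in DMSO arrays and 53.5, 408 and 700 in mefloquine arrays. It was above the floor on 5 DMSO and 4 mefloquine arrays, and its log2 difference was -0.06 ± 0.16.

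Sult1a1, which sulfates phenols and catecholamines, had intensities of 988, 1741 and 2483 in DMSO arrays and 1605, 1780 and 2298 in mefloquine arrays. The mefloquine arrays lay inside the range of the DMSO arrays, and the log2 difference was 0.10 ± 0.15 (SE, n = 8 each; 95% interval -0.22 to 0.43; limma adjusted p = 0.982). The value of 988 came from DMSO 3, and without that array the difference was -0.01. Ephx1, which opens epoxides in the endoplasmic reticulum, had intensities of 908, 1362 and 1656 in DMSO arrays and 1032, 1212 and 1518 in mefloquine arrays. Of 8 mefloquine arrays 6 lay below the DMSO mean, and the log2 difference was -0.14 ± 0.13 (95% interval -0.41 to 0.13; limma adjusted p = 0.982; exact permutation p = 0.243). Ephx1 had the smallest unadjusted p of the 12 members, at 0.284, and kept its sign in all 31 alternative fits.

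**Figure D3:**
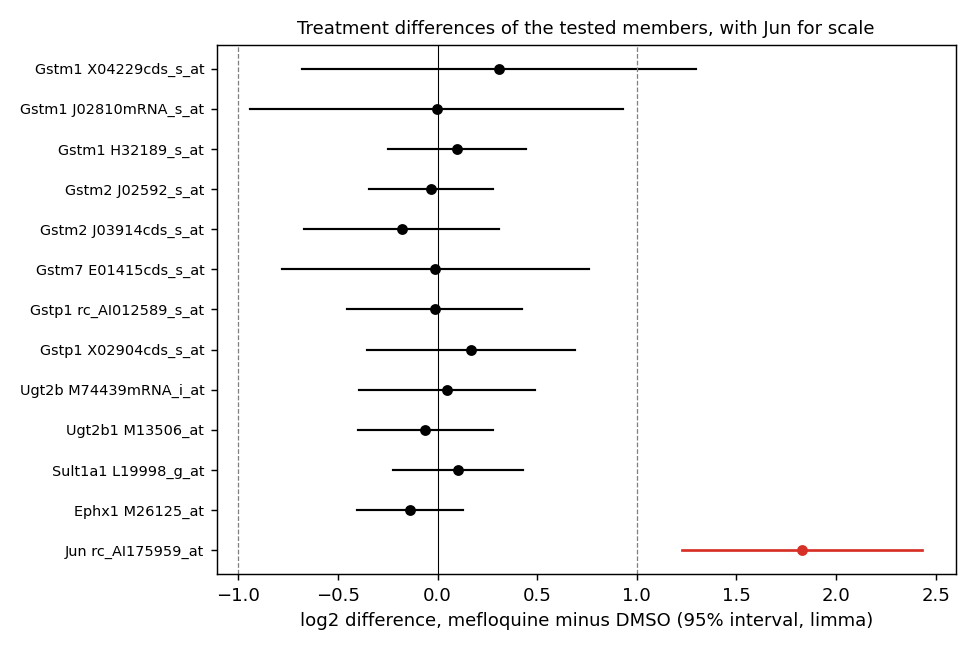
Log2 difference between mefloquine and DMSO arrays for the 12 tested members (points) with limma 95% intervals (lines), beside the brightest probe set of Jun in red; dashed lines mark 2-fold changes. Each member interval crosses 0 and 11 stay within the dashed lines, while this Jun probe set lies at 1.83.

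Promoter letters were compared because Gstp1 is a textbook target of AP-1, the transcription factor that contains Jun, and the Jun transcript rose with mefloquine. By its brightest probe set, rc_AI175959_at, Jun had intensities of 760 to 2531 in DMSO arrays and 2576 to 11126 in mefloquine arrays, with no overlap and a log2 difference of 1.83 ± 0.29 (SE, n = 8 each; limma adjusted p = 0.0012). The dimmer Jun probe sets differed by less, 1.11 ± 0.26 (rc_AA945867_at) and 1.14 ± 0.27 (X17163cds_s_at). Each had a limma adjusted p of 0.0425, and their groups overlapped. The upstream windows of the 250 bases before the annotated start were taken from RefSeq's rat promoter table (GRCr8), which held 22 of the 25 member genes and all 8 tested ones. Both strands were searched for the AP-1 site TGACTCA and for the core of the antioxidant response element, TGACNNNGC, through which the factor NRF2 acts. These motifs can share their first 4 letters. TGACTCA was found for 3 member genes, of which Gstp1 and Ephx1 were tested, and for 4.05% of all 33469 windows. TGACNNNGC was found for 4, of which Gstp1, Gstm7 and Ephx1 were tested, and for 10.1% of all windows. The other gene with each motif was Gstm5. A member gene counted if any of its windows matched (23 windows for 22 genes), so these counts and the shares of windows are in unlike units. The windows of the tested genes with a match follow, 5′ to 3′ toward the gene on the minus strand, with matched letters in capitals. They lie at chr1:210769706-210769955 for Gstp1, chr2:198260320-198260569 for Gstm7 and chr13:95263118-95263367 for Ephx1, whose other window held neither motif.
Gstp1: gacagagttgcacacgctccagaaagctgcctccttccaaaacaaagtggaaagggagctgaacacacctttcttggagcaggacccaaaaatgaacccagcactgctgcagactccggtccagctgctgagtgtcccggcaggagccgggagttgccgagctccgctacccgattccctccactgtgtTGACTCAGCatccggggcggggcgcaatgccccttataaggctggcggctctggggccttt
Gstm7: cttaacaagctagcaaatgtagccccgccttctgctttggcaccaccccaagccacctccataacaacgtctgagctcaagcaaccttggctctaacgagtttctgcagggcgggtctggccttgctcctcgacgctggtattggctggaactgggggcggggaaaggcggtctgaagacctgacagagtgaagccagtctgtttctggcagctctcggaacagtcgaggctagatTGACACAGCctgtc
Ephx1: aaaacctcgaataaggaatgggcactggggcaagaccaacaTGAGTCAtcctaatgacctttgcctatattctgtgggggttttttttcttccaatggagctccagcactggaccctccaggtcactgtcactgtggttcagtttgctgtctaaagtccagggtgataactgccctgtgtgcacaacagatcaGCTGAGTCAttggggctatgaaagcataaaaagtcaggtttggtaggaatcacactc

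In the Gstp1 window a single stretch matched both motifs, starting at position -61 from the annotated start. In the Gstm7 window the match started at -14. In the Ephx1 window the motifs lay on the opposite strand, TGACTCA with its leftmost base at -209 and again at -55, the latter inside a TGACNNNGC match from -57. The transcripts of these 3 genes differed between the groups by -0.01 (Gstp1, rc_AI012589_s_at), -0.01 (Gstm7) and -0.14 (Ephx1) on the log2 scale, none of which passed. By the other Gstp1 probe set, X02904cds_s_at, the difference was 0.17 (-0.06 without DMSO 3), which did not pass either. A match of letters is a description of the sequence, not evidence of a bound site. The third DNA motif searched, GCGTG, the core to which the dioxin receptor binds, was found in the windows of Gstp1 and Gstm5 and in 25.9% of all windows.

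In 1 of the 12 tested member probe sets, of Gstm1, the level followed the replicate number more clearly than the drug. By X04229cds_s_at, Gstm1 had intensities from 3163 to 5217 in DMSO replicates 1 to 5 and from 1310 to 1389 in DMSO replicates 6 to 8. In mefloquine arrays it ran from 4615 to 10444 in replicates 1 to 5 and from 1188 to 1642 in replicates 6 to 8. The lowest array of replicates 1 to 5 in either group thus lay above the highest of replicates 6 to 8, and the means were 5279 ± 1932 (SD, n = 10) and 1380 ± 153 (SD, n = 6). Such a complete split was seen for 4.95% of all tested probe sets and for 1 of the 12 members. The log2 difference, replicates 6 to 8 minus 1 to 5, was -1.88 ± 0.17 (SE), with -1.69 in DMSO arrays and -2.06 in mefloquine arrays alone. It was -1.72 without DMSO 3 and mefloquine 1 and 2, and between -1.94 and -1.77 with 1 array left out at a time. The ranges were noticed on these arrays and no label explains them, so the limma values for them are a description. Each range holds equal numbers of both groups, so a term for the range cannot move the treatment difference of 0.31. With that term its 95% interval ran from -0.04 to 0.66 and its limma adjusted p was 0.898.

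**Figure D4:**
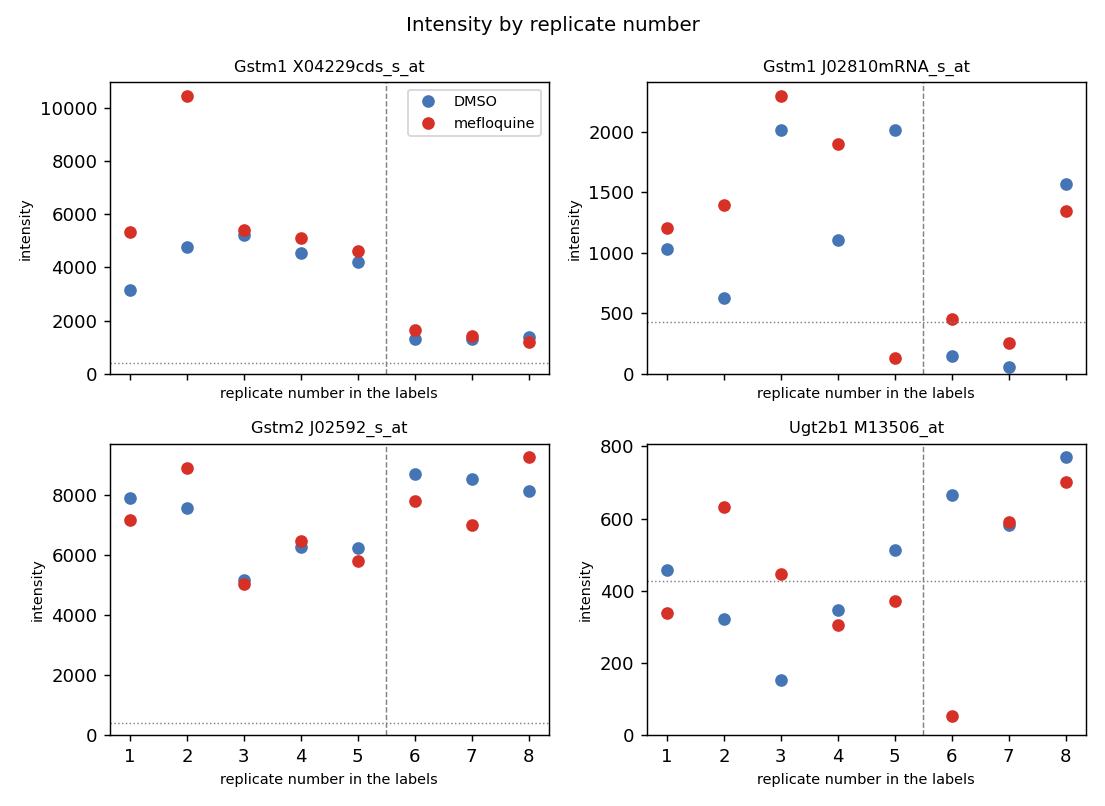
Intensity by the replicate number of the labels for 4 member probe sets, DMSO in blue and mefloquine in red, with a dashed line between replicates 5 and 6 and a dotted line at the floor. The Gstm1 probe set X04229cds_s_at drops to 1188 to 1642 at replicates 6 to 8 in both groups, J02810mRNA_s_at shows no complete split, and the Gstm2 and Ugt2b1 levels overlap between the ranges.

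The other probe sets of Gstm1 did not split. By J02810mRNA_s_at, replicates 6 and 7 were at 452 or below in both groups, but replicate 8 was at 1572 and 1350, inside the range of replicates 1 to 5, and mefloquine 5 was at 132. Its log2 difference between the ranges was -0.94 ± 0.40 (SE; limma adjusted p = 0.1495), and that of H32189_s_at was -0.30 ± 0.16. Gstm2 by J02592_s_at lay in the opposite direction, at 0.32 ± 0.13 (limma adjusted p = 0.130). It passed without DMSO 3 and mefloquine 1 and 2, with a difference of 0.37 and an adjusted p of 0.0192, while J03914cds_s_at was at -0.01. Among the 12 members 2 passed between the ranges, Gstm1 lower and Ugt2b1 higher in replicates 6 to 8, where 12.5% of all tested probe sets passed. Ugt2b1 passed at the margin (0.42, limma adjusted p = 0.0491), and with 1 array left out its call held only without DMSO 3, mefloquine 2 or mefloquine 6. Without DMSO 3 and mefloquine 1 and 2, 3 of the 12 passed, Gstm1, Gstm2 and Ugt2b1, where 20.6% of all did. For the interaction of treatment with the ranges, 0 of 12 members and 0% of all tested probe sets passed in limma, and 4.22% of all had an unadjusted p under 0.05, none of them members.

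Genes that work beside these enzymes were read from a list of 74, ordered by role, of which 18 had tested probe sets, 22 in all. None passed between mefloquine and DMSO arrays in either direction (0 of 22, where 1.28% of all did), and 1, Hmox1, had an unadjusted p under 0.05. The median log2 difference was -0.04, with 9 probe sets above 0 and 13 below. Among other conjugating transferases, the microsomal glutathione transferases Mgst1, Mgst2 and Mgst3 differed by 0.04 ± 0.19, -0.08 ± 0.13 and 0.07 ± 0.10 (log2, SE, n = 8 each). Gclc, the catalytic subunit of the enzyme that limits glutathione synthesis, differed by -0.05 ± 0.23. Of 4 probe sets for peroxidases that consume glutathione, 3 were below 0. Gpx1 differed by -0.17 ± 0.12 (X07365_s_at, with 7 of 8 mefloquine arrays below the DMSO mean) and -0.08 ± 0.12 (X12367cds_s_at), Gpx3 by -0.11 ± 0.12 and Gpx4 by 0.06 ± 0.10. DMSO 3 was the highest DMSO array for X07365_s_at, at 13520, and the lowest for X12367cds_s_at, at 6830. Without that array the Gpx1 differences were -0.09 (X07365_s_at) and -0.16 (X12367cds_s_at). Among oxidoreductases and other partner enzymes, 9 probe sets of 6 genes were tested. Hmox1, the stress-inducible heme oxygenase, had intensities of 8.8, 836 and 1055 (lowest, median and highest) in DMSO arrays and 967, 1123 and 1380 in mefloquine arrays. All 8 mefloquine arrays lay above the DMSO mean and 5 above the highest DMSO array, and the log2 difference was 0.51 ± 0.16 (limma adjusted p = 0.266; unadjusted p = 0.00536). The value of 8.8 came from DMSO 3, and without that array the Hmox1 difference was 0.38. This difference was above 0 in all 30 alternative fits, with a lowest limma adjusted p of 0.0562, and it did not pass in any. Its exact permutation p over all 16 arrays was 0.0011 (two-sided), not adjusted for the number of probe sets. Nqo1, a quinone reductase, had medians of 736 and 438, with 6 of 8 mefloquine arrays below the DMSO mean, and a log2 difference of -0.34 ± 0.19 (limma adjusted p = 0.982). It was close to the floor, and above it on 6 DMSO and 4 mefloquine arrays. The Nqo1 difference ranged from -0.43 to -0.28 with 1 array left out and from -0.61 to -0.18 under the other alternatives.

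The exporters Abcc2 and Abcc3, which pump glutathione and glucuronide conjugates out of cells, differed by -0.10 ± 0.13 and 0.31 ± 0.30, and Abcb4, a phospholipid transporter, by -0.03 ± 0.11. Of the listed regulators, Arnt, the partner of the dioxin receptor, differed by 0.13 ± 0.23, and Rxrb, a retinoid X receptor, by -0.02 ± 0.17. Arnt was at 0.64 within replicates 1 to 5 and -0.73 within replicates 6 to 8. The interaction of treatment with these ranges did not pass in limma (unadjusted p = 0.00137, adjusted p = 0.748). Arnt was close to the floor, and above it on 6 of 8 arrays in each group.

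Between the replicate ranges, 2 of these 22 probe sets passed in limma's description (12.5% of all did), and both were lower in replicates 6 to 8. Without DMSO 3 and mefloquine 1 and 2, 3 of the 22 passed (20.6% of all did), the added one being Gpx3, which was higher in replicates 6 to 8 by 0.34 (limma adjusted p = 0.0147). Gclc differed by -0.70, with a limma adjusted p of 0.0128, and passed in all 16 fits with 1 array left out. It was above the floor on 6 DMSO and 5 mefloquine arrays, most of them in replicates 1 to 5. In replicates 6 to 8 its intensities were 484, 494 and 239 in DMSO arrays and 266, 392.5 and 395 in mefloquine arrays. Gclc thus met the filter mainly through the range where it was high, so its place in these counts is no test. Abcc3 lay below the floor on all 6 arrays of replicates 6 to 8, from -197 to 118, so the size of its difference depends on where the floor is set. It was above the floor on 4 DMSO and 4 mefloquine arrays, all of them in replicates 1 to 5. Abcc3 thus met the filter only through the range where it was high, and its place in the counts of 2 and 3 is no test. On the floored scale its difference was -0.85. The limma adjusted p of 0.0287 was lost without mefloquine 4, 6, 7 or 8 (adjusted p up to 0.0684). Neither Gclc nor Abcc3 passed within DMSO or mefloquine arrays alone. Gclc did not pass with the floor at the 10th percentile or with an offset in place of the floor.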

How the data were processed

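Per the labels, the authors hybridised total RNA and applied only the standard chip scaling to the signals. The deposited table gives intensity values on a linear scale for 1031 rows, 59 of them control probe sets, with 26.9% of values at or below 0. Software and scaling target are not given in the sources used. Precision is limited by having 8 arrays a group. At most 0.0970% of values were identical between any 2 arrays.

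Values were floored at the 25th percentile of all positive values (427) and log2 was taken, which can understate differences of dim probe sets. The 545 gene probe sets above the floor on 8 or more arrays were fitted in R 4.3.3 by lmFit and eBayes of limma 3.58.1, with treatment as the only term and Benjamini-Hochberg adjustment over all 545. The fit was checked on simulated data. Alternatives changed the normalization, floor, filter, variance model, weights, block, covariates and arrays included. Exact permutation tests used all 12870 divisions of the arrays into 8 and 8, and were two-sided. Symbols came from the platform annotation, all 25 were found in RefSeq's table, and probe sets with several symbols were not named. The members and lists were chosen with earlier results of these data known. Every member gene is named, with values for each tested probe set.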

Additional observations from a re-analysis of the deposited data

Results flagged for a closer look

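Dixon's test asked, separately for the 8 DMSO and the 8 mefloquine arrays, whether an extreme log2 intensity of a tested member or accompanying gene lay far from its neighbour. It singled out 9 of 68 cases (13.2%). About 5% would be for independent cases with normally distributed values. Here the cases share the same arrays and some values sit at the floor, so these shares cannot be compared directly. DMSO 3 was the array in 8 of the 9. Among the members, DMSO 3 was far below the other 7 DMSO arrays for Gstm7 at the floor of 8.74 (others 11.01 to 11.98), for Gstp1 by X02904cds_s_at at 9.53 (others 11.22 to 11.71) and for Ephx1 at 9.83 (others 10.32 to 10.69). Mefloquine 3 was low for Gstm7, at 9.78 (other mefloquine arrays 10.96 to 11.45). Among the accompanying genes, DMSO 3 was low for Hmox1 (8.736, the floor), Abcb4 (9.68), Rxrb (9.07), Mgst3 (11.20) and Por by rc_AI137856_s_at (10.95). This array also had the highest 3' over 5' ratios, 21.3 for beta-actin and 4.62 for GAPDH, and their part in these values was not tested.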

How the results depend on the processing

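The count of changed probe sets over the whole array was 7 and became 4 with quantile normalization, with the floor at the 10th or 40th percentile and with an offset in place of the floor, 3 with all 16 arrays above the floor and 1 within replicates 6 to 8 alone. With 1 array left out it ranged from 4 to 8. The cause was not tested, except that the narrower filter tests fewer probe sets and the replicate range alone uses 6 arrays. The counts of changed members and of changed accompanying genes were 0 in all 31 alternatives. The family medians, -0.01 for Gst, -0.01 for Ugt, 0.10 for Sult and -0.14 for Ephx, moved by less than the spread between arrays, except Ugt, at -0.33 within replicates 6 to 8 alone. With 1 array left out they ranged from -0.07 to 0.09, -0.08 to 0.05, -0.01 to 0.18 and -0.22 to -0.10. The Sult and Ephx values are those of 1 tested probe set each, and the Ugt median rests on 2. Under the stricter floor or filter some dim members were not tested and have no value. Of 370 alternative values of single members, other probe sets of the same gene included, 2 moved by more than that spread, Gstp1 (0.47) and Ugt2b (-0.41) within replicates 6 to 8, and 0 passed. Arrays of equal replicate number correlated in their deviations from the group means at 0.0569 to 0.593, over 0.1 in 7 of 8 pairs. All 8 were required for the numbers to count as pairs, and no label states a pairing. With the replicate number as a block, which cannot move a difference here because each number holds 1 array of each group, there were 8 calls over the whole array and 0 among the members (for Gstm1 0.31, limma adjusted p = 0.822). Of the 8 DMSO arrays 2 correlated best with the mefloquine array of their own number. The difference of Gstm1 between the replicate ranges lay between -2.06 and -1.61 under the alternatives added after the data had been seen, and Gstm2 passed there also after division by the median positive value (0.45).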

Other observations

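Some probe sets of Ugt genes that were too dim to test were high on the mefloquine arrays that stood apart. Ugt2b37, a glucuronosyltransferase gene of the same family as Ugt2b, had intensities of 1156 on mefloquine 1 and 665 on mefloquine 2 and was below the floor on the other 14 arrays. Ugt2b35 by U06273_i_at was at 1493 on mefloquine 1, 847 on DMSO 3, 804 on mefloquine 2, 748 on DMSO 2 and 477 on DMSO 1, and below the floor on the others. Ugt2b by rc_AI169708_s_at was above the floor on the same 3 arrays that stood apart and on no other, at 792 on mefloquine 1, 502 on mefloquine 2 and 435 on DMSO 3. These probe sets were singled out after their values had been seen, and none was tested.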
